A study of Mus musculus with 16 samples.

Results

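Cytosolic ribosomal protein genes encode the proteins of the large (Rpl) and small (Rps) subunits of the ribosome outside mitochondria. They were chosen by name alone, as symbols made of Rpl or Rps, a number and at most 1 final letter a or x, together with Rpsa, Rplp0, Rplp1 and Rplp2. Names with -ps and the Rps6k kinases were dropped. Of 23337 gene symbols counted, 77 matched, and the 73 with at least 10 reads in at least 4 of the 16 libraries were kept, 43 of the large and 30 of the small subunit. Just outside this minimum were Rpl26 with 0 reads in all libraries together, Rpl34 with 34, Rps27 with 62 and Rpl30 with 63. The members with the fewest reads inside it were Rps21 with 6180, Rpl36a with 6444 and Rpl35 with 6801. All 73 also passed the expression filter of the test, so 73 members were tested among 12952 genes.

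RNA was sequenced from mouse CD4+ T cells that received a synthetic microRNA, called a mimic. There were 4 groups of 4 libraries, given the miR-23a mimic, the miR-24 mimic, the miR-27a mimic or a control mimic. The cells of every group, controls included, came from C57BL/6 mice that carried Dgcr8 f/f and CD4-cre and were labelled Tbet-/-, a genotype of the gene Tbx21. Dgcr8 is needed to make most microRNAs, and CD4-cre acts in T cells from the stage at which they carry CD4; the microRNAs of these cells were not measured here. Tbx21 had 9 to 58 reads with miR-23a, 13 to 31 with miR-24, 0 to 12 with miR-27a and 0 to 13 with the control mimic, at most 5.19 CPM, a read count put on a common scale for all libraries by TMM (trimmed mean of M-values). Dgcr8 had 32.4 to 58.3 CPM in 15 libraries and 114 CPM in control mimic replicate 1. Counts per gene do not show whether such reads come from the part of a gene that an allele lacks. Living RosaYFP+ cells, which have a record of Cre activity, were sorted. Culture began with 3 days of CD3 and CD28 stimulation in 10 U/ml of IL-4, followed by 2 days of rest in 20 U/ml of IL-2. Mimics were given at 500 nM on day 1 and day 4. The labels give no age of the mice, no arm or sequence of a mimic, and no separate mouse for each library, so the p-values measure only the spread between libraries.

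Each ribosome holds 1 copy of most of these proteins, and cells usually make them in step with each other and with ribosomal RNA. Their messenger RNAs are abundant and mostly short, and many start with a run of pyrimidines, the 5′ terminal oligopyrimidine motif, through which the kinase mTORC1 and the RNA-binding protein LARP1 adjust their translation. Activated T cells enlarge this machinery as they grow. A microRNA lowers target messenger RNAs mainly through its seed, bases 2 to 8, which pairs with sites in 3′ untranslated regions (3′UTRs).

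The mature sequences below are the 3p arms from RefSeq (GRCm38.p6), taken here because these are the well-known arms of the miRNAs, and the capitals mark the seed.
mmu-miR-23a-3p: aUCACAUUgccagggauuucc
mmu-miR-24-3p: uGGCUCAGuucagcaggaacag
mmu-miR-27a-3p: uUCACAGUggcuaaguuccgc
The miR-23a-3p sequence lies at chr8:84208563-84208583 and that of miR-27a-3p at chr8:84208727-84208747, both on the plus strand, while miR-24-3p is encoded at chr8:84208875-84208896 and at chr13:63301251-63301272, also on the plus strand. The seeds of miR-23a-3p and miR-27a-3p differ in 1 of 7 bases, and that of miR-24-3p differs from each in all 7.

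The 3′UTRs of the 77 members in GENCODE M21 (GRCm38) were searched on the transcript strand for 8mer sites, the seed complement followed by A, which read AATGTGAA for miR-23a-3p, CTGAGCCA for miR-24-3p and ACTGTGAA for miR-27a-3p. An 8mer match contains both shorter 7mer matches. Only 4 matches of this length were found, and each is shown with its surroundings because the values of these genes are compared below. Capitals mark the match.
Rps29, for miR-23a-3p: aaagaataaaAATGTGAAgaactttaa
Rps15a, for miR-24-3p: agctatttctCTGAGCCAtttctccagc
Rps24, for miR-24-3p: ctcttacctgCTGAGCCAtctccctagc
Rpl21, for miR-27a-3p: cagcaccaggACTGTGAAgtgttttcct
The Rps29 window lies at chr12:69157722-69157748 on the minus strand, in the last of 3 exons, and its match starts at base 75 of a 3′UTR of only 91 bases. The Rps15a window lies at chr7:118106275-118106302 on the minus strand, at base 2808 of a 3′UTR of 4728 bases in the RefSeq-matched transcript. The Rps24 window is at chr14:24496394-24496421 on the plus strand, from base 618 of 1173, and the Rpl21 window at chr5:146835976-146836003 on the plus strand, from base 33 of 1079. Over any coding transcript of the 77 members, the genes with an 8mer match were the same 4. Of 20076 protein-coding genes, 5.45% held the miR-23a-3p 8mer in the 3′UTR, 6.39% that of miR-24-3p and 5.22% that of miR-27a-3p. Within windows of the length of the Rps29 3′UTR at the end of 18594 annotated 3′UTRs, 0.71% held the miR-23a-3p 8mer. A match describes these letters and does not show that a mimic binds there.

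The 15 deeper libraries held 2120408 to 13714841 reads in genes, and control mimic replicate 1 held 51474. In that library a single count equalled 16.3 CPM. Members there had 1 to 45 reads with a median of 7, and 23 of 73 reached 10 reads. Members had 83 to 12463 reads in the other libraries. A list of 7 T cell markers, most of them shared by CD4 and CD8 T cells, summed to 1617 to 2502 CPM. Of these, Cd4 alone had 297 to 946 CPM. The 2 markers of CD8 T cells, Cd8a and Cd8b1, summed to at most 35.7 CPM in any library. Markers of B cells reached at most 18.4, myeloid cells 17.8, dendritic cells 20.3, erythroid cells 0.469 and NK cells 0.0764 CPM. Rn45s, the 45S precursor of ribosomal RNA, took 1.77% to 10.5% of gene reads with miR-23a, 1.65% to 19.1% with miR-24, 1.17% to 10.2% with miR-27a and 0.30% to 4.41% with the control mimic. In bulk RNA, fewer cells of a type and less RNA per cell cannot be told apart.

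The members together took 0.853% to 1.62% of gene reads. Their summed level was 12827, 10542, 11207 and 11237 CPM with miR-23a, 13227, 15218, 17273 and 14174 CPM with miR-24, 12731, 14546, 14209 and 9859 CPM with miR-27a, and 9776, 12544, 13249 and 9448 CPM with the control mimic. The miR-24 libraries were all above those of miR-23a, and the lowest of them was just below the highest control library. Large subunit members summed to 9689 ± 1058 CPM with miR-24 and 7309 ± 1284 CPM with the control mimic, and small subunit members to 5284 ± 703 and 3946 ± 689 CPM in the same groups (SD, n = 4 each).

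**Figure D1:**
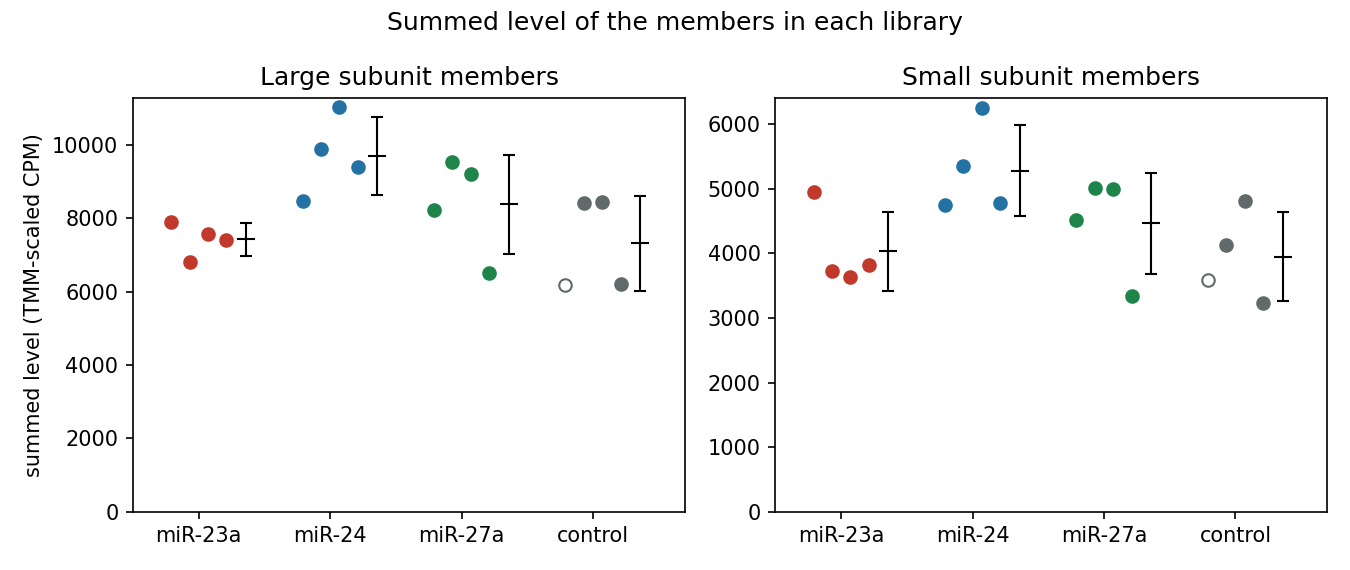
Summed TMM-scaled CPM of the 43 large subunit members (left) and the 30 small subunit members (right) in each library, with the mean ± SD of 4 libraries as a bar beside them. The open circle is control mimic replicate 1 with 51474 gene reads, and the miR-24 libraries reach the highest sums in both panels, up to 11018 and 6255 CPM.

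Levels differed widely between members even per length. Per kb of coding sequence, the highest mean levels over the 16 libraries were those of Rpl41, which encodes a peptide of 25 amino acids, at 3762 CPM per kb, of Rpl39 at 1228 CPM per kb and of Rpl4 at 665 CPM per kb. The lowest were Rpl8 at 108, Rps2 at 117 and Rpl35 at 126 CPM per kb. Rps29 was at rank 6 with 579 CPM per kb. Per kb of the whole transcript the order differed, with Rpl39 at rank 9 and Rps29 at rank 20. The lowest values there were those of Rps15a, 19.9, and Rps20, 32.7 CPM per kb, and Rpl8 was at rank 65. Without regard to length Rpl4 had the highest mean, 836 CPM, and in every group it was between 737 and 926 CPM on average. Rpl5, which joins Rpl11 and 5S RNA in a particle that can bind the p53 regulator Mdm2, averaged 423 ± 78.4 CPM with miR-23a, 577 ± 37.2 with miR-24, 434 ± 30.2 with miR-27a and 465 ± 118 with the control mimic. Its partner Rpl11 averaged 145 ± 22.5, 168 ± 35.5, 163 ± 37.2 and 120 ± 33.1 CPM in the same order of groups. Neither passed the test in any of the 6 comparisons.

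Set against the control mimic, miR-23a libraries had 1 member that fell, Rps29. Rps29, a zinc-binding protein of the head of the small subunit that is mutated in some families with Diamond-Blackfan anaemia in humans, had 36.3, 33.0, 20.0 and 14.6 CPM with miR-23a, against 97.6, 79.2, 126 and 106 CPM with the control mimic. Every miR-23a library was below every control library. The log2 fold change was -1.99 ± 0.30 (SE), with an adjusted p of 0.00743 (edgeR, quasi-likelihood, Benjamini-Hochberg over all genes). It was the 1 member of 73 called, against 0.131% of all genes tested. Its reads were 406, 145, 227 and 191 with miR-23a, so the low values do not rest on few counts. The call was lost when only the libraries of both groups were fitted (adjusted p = 0.0583). Without the shallow control mimic replicate 1 the adjusted p was 0.0122, and over the 8 fits that each left out 1 library the log2 fold change lay between -2.21 and -1.79.

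Rpl38, a large subunit protein whose loss in mice alters the axial skeleton, had the second-lowest fold change. It stood at 41.1, 21.6, 23.7 and 18.7 CPM with miR-23a, against 48.8, 56.1, 77.4 and 59.7 CPM with the control mimic. The groups did not overlap, though the lowest control value, 48.8 CPM in control mimic replicate 1, came from only 3 reads. The log2 fold change of -1.26 ± 0.26 had an adjusted p of 0.0761 and missed the threshold of 0.05. Without miR-23a replicate 1, the highest of the 4, it was -1.56 with an adjusted p of 0.0233. Rpl24, a large subunit protein whose gene is mutated in the Belly spot and tail mouse, had 107, 104, 126 and 114 CPM with miR-23a. It had 195, 206, 302 and 159 CPM with the control mimic. Here too the groups were apart, with a log2 fold change of -0.95 ± 0.26 and an adjusted p of 0.257.

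Across all members the miR-23a and control libraries differed little. The median log2 fold change was 0.07 for the 73 members and 0.05 for all genes. Positive values were found for 43 members, against 53.8% of all genes, and 30 were negative. The 4021 genes whose mean level lay within the range of the members had a median of -0.06, with 1769 positive. Leaving out 1 library at a time moved the members' median between -0.07 and 0.17, and it was negative without miR-23a replicate 1 and without control mimic replicate 1 or 4. Libraries of both groups did not overlap for 4 members with lower levels, Rps29, Rpl38, Rpl24 and Rps7, against 2.02% of all genes, and for 0 members with higher levels, against 3.18% of all genes. The highest fold changes were those of Rps19, 0.86 ± 0.34 (adjusted p = 0.369), Rpl18, 0.84 ± 0.32 (adjusted p = 0.365), and Rpl8, 0.53 ± 0.35 (adjusted p = 0.577), each with overlapping libraries. Rps19 encodes the small subunit protein most often mutated in Diamond-Blackfan anaemia, and Rpl8 and Rpl18 encode proteins of the large subunit.

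**Figure D2:**
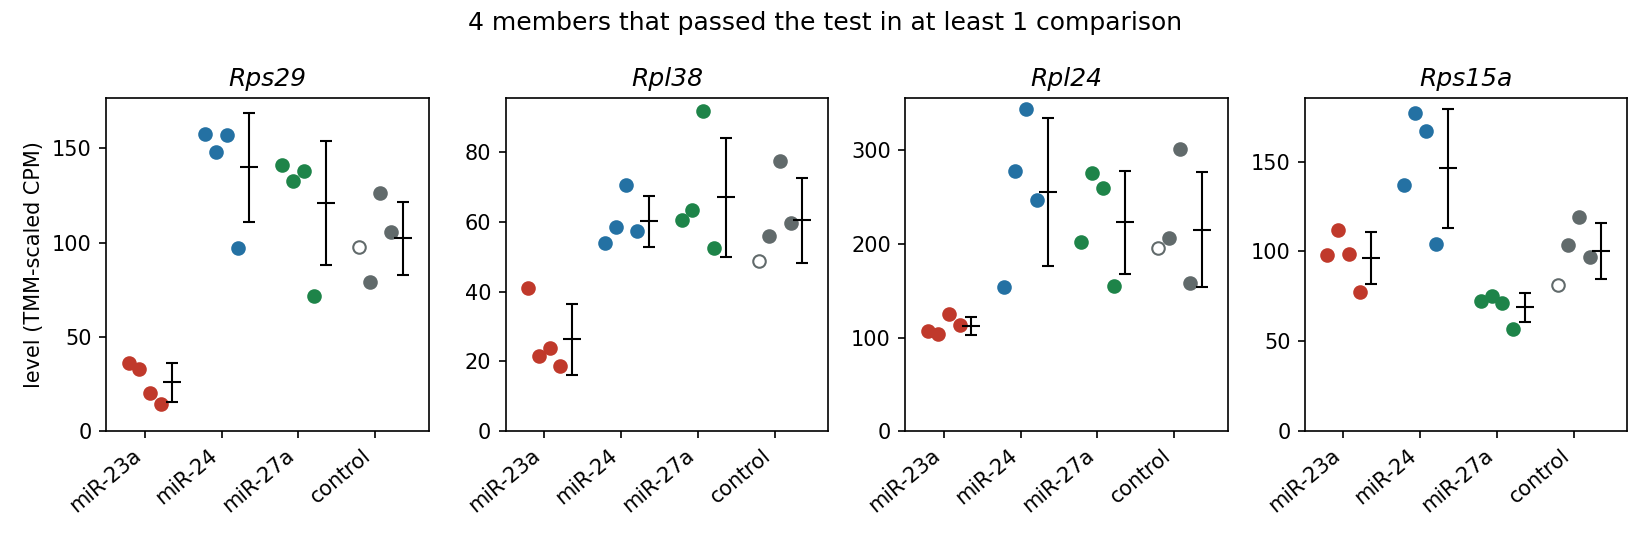
TMM-scaled CPM of Rps29, Rpl38, Rpl24 and Rps15a in each of the 16 libraries, by group, with the mean ± SD of 4 libraries as a bar. Open circles are control mimic replicate 1; Rps29 lies at 14.6 to 36.3 CPM with miR-23a and above 70 CPM in all other libraries.

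The other mimics gave a second view of the same members, in libraries that share the miR-23a group with the comparison above. Rps29 had 158, 148, 157 and 97.0 CPM with miR-24 and 141, 133, 138 and 71.7 CPM with miR-27a. All 8 of these libraries exceeded all miR-23a libraries and overlapped the control libraries. Against miR-23a, Rps29 rose in miR-24 by a log2 fold change of 2.44 ± 0.30 (adjusted p = 0.000627) and in miR-27a by 2.22 ± 0.30 (adjusted p = 0.00371). Against the control mimic its log2 fold change was 0.44 with miR-24 and 0.22 with miR-27a, and neither passed the test.

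Rpl38 had 53.9, 58.6, 70.7 and 57.6 CPM with miR-24 and 60.6, 63.4, 91.9 and 52.5 CPM with miR-27a. It was higher than with miR-23a by 1.19 ± 0.25 in miR-24 (adjusted p = 0.0268) and by 1.35 ± 0.26 in miR-27a (adjusted p = 0.0207) on the log2 scale. Rpl24 had 154, 278, 344 and 247 CPM with miR-24 and 202, 275, 259 and 155 CPM with miR-27a. Its log2 fold change against miR-23a was 1.18 ± 0.25 for miR-24 (adjusted p = 0.0268) and 0.98 ± 0.25 for miR-27a (adjusted p = 0.0991). Each of these groups lay wholly above miR-23a.

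In all, 3 members rose in miR-24 relative to miR-23a (Rps29, Rpl38 and Rpl24), against 0.471% of all genes called higher and 1.1% called in either direction. In miR-27a relative to miR-23a 2 rose (Rps29 and Rpl38), against 0.386% of all genes called higher and 0.548% called in either direction. Same-numbered libraries of these group pairs deviated together. With the replicate number as a block 14 members rose in miR-24 relative to miR-23a. Of all genes, 2.65% were called higher there and 5.38% in either direction. In miR-27a relative to miR-23a 3 rose, against 1.99% of all genes called higher and 2.95% in either direction. The 14 were Rps29, Rpl38, Rpl24, Rpl13, Rpl22, Rpl32, Rpl35a, Rpl37, Rpl39, Rps13, Rps15a, Rps28, Rps3a and Rps7. With Rps29 the block left the call in place in both comparisons. Rpl38 and Rpl24 missed the threshold without the block when 1 of several libraries was left out. For Rpl38 these were miR-23a replicate 2, 3 or 4, miR-24 replicate 2 or 3 and miR-27a replicate 2 or 3, with an adjusted p of at most 0.0990. For Rpl24 in miR-24 relative to miR-23a, 7 of 8 fits missed it, all but the one without miR-24 replicate 1, with an adjusted p of at most 0.108.

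The median log2 fold change of members was 0.44 for miR-24 relative to miR-23a, against 0.01 for all genes. It was 0.18 for miR-27a relative to miR-23a, against -0.03 for all genes. For the 4021 genes within the level range of the members, the medians were -0.04 and 0.05. The members' value for miR-27a was 0.11 without miR-27a replicate 2 and 0.30 without miR-27a replicate 4. Positive values were found for 65 members in miR-24, against 50.7% of all genes, and for 54 in miR-27a, against 47.3%. The miR-24 libraries lay wholly above the miR-23a libraries for 15 members, against 3.76% of all genes, and wholly below for 1, Rpl6, against 4.78%. The 15 include Rplp0, which anchors the stalk, Rpl5 and Rpl4. The miR-27a libraries were wholly above for 5 members, against 3.51% of all genes, and wholly below for 2, Rpl23 and Rps15a, against 3.05%.

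**Figure D3:**
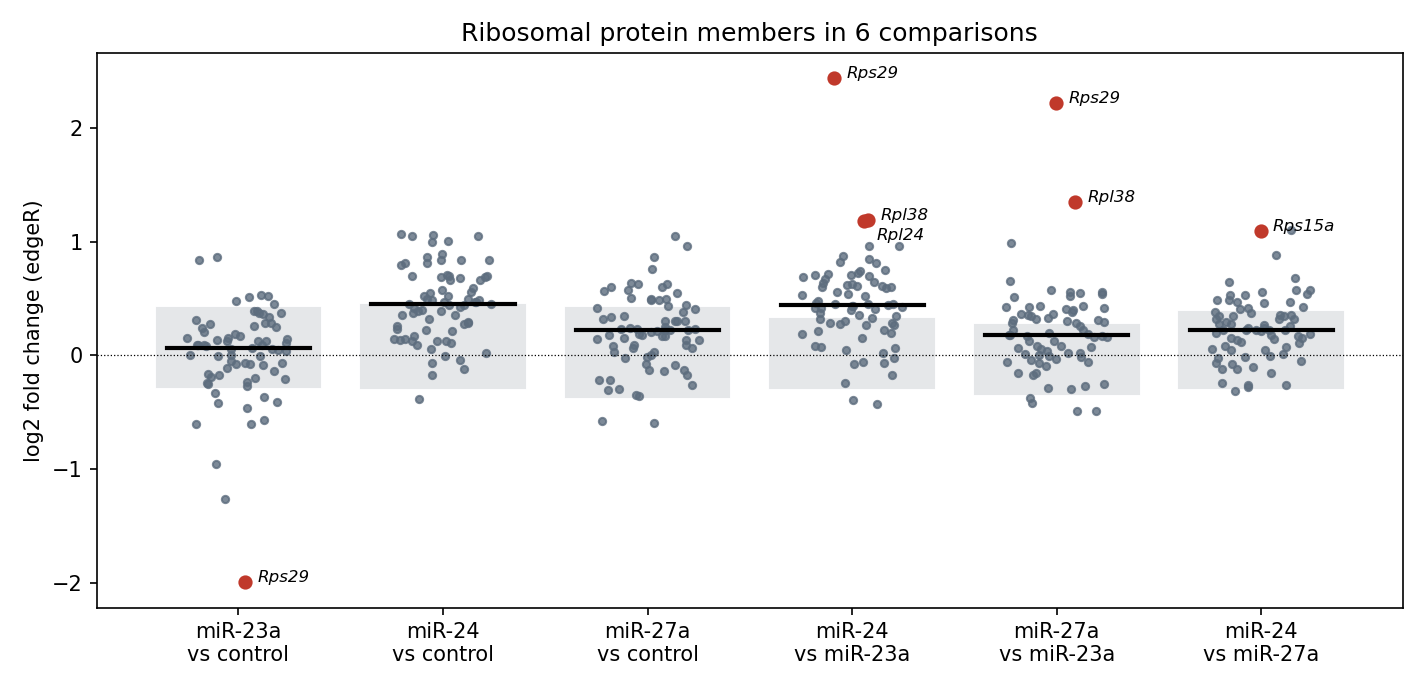
Log2 fold changes of the 73 members in 6 comparisons, the group named first over the second. Points are members (red with an adjusted p under 0.05), black bars their medians and grey boxes the quartiles of all 12952 genes; the member medians run from 0.07 in miR-23a against control to 0.45 in miR-24 against control.

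With miR-24, most members had positive fold changes relative to the control mimic, although none passed the test. The median log2 fold change was 0.45 for members and 0.05 for all genes, and 67 members were positive against 53.6% of all genes. It was 0.45 for the large and 0.46 for the small subunit members. For the 4021 genes within the level range of the members it was -0.11, with 1556 positive. No member was called by edgeR (0.849% of all genes), and 23 of 73 had an unadjusted p under 0.05 against 14.2% of all genes, all 23 of them higher against 7.41%. DESeq2 called 2 and limma 0. Libraries of both groups did not overlap for 8 members with higher levels, Rpl13, Rps19, Rpl27, Rpl9, Rpl37, Rpl35a, Rps23 and Rpl17, against 4.04% of all genes, and for 0 with lower levels, against 2.74%.

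Rpl9 came closest to the threshold, with 296, 255, 292 and 267 CPM with miR-24, against 97.6, 168, 200 and 136 CPM with the control mimic (log2 fold change 0.81 ± 0.21, adjusted p = 0.0753). Only 6.68% of the 50-base stretches of its transcript are found in no other gene's transcript, the lowest share of all members. Reads of many positions could thus lack a unique place, and such reads were counted on a separate line that was left out. Rpl13 had 147, 209, 257 and 158 CPM with miR-24, against 65.1, 129, 92.4 and 67.6 CPM with the control mimic (1.05 ± 0.28, adjusted p = 0.0958). In both genes all miR-24 libraries were above all control libraries. The share of 50-base stretches found in no other gene's transcript was 19.7% for Rpl13.

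Rplp2 and Rps15 were among the 3 members of highest fold change with miR-24, at 1.06 ± 0.52 and 1.05 ± 0.44, with adjusted p of 0.365 and 0.282. Rplp2 and its partner Rplp1 form the acidic dimers of the stalk that recruits elongation factors. Rplp2 had 27.5, 119, 136 and 93.8 CPM with miR-24, against 32.5, 69.5, 50.8 and 17.4 CPM with the control mimic, so its groups overlapped through miR-24 replicate 1. Rplp1 averaged 139 ± 74.5 CPM with miR-24 and 74.8 ± 64.6 CPM with the control mimic, and the stalk base Rplp0 268 ± 55.9 and 197 ± 64.7 CPM. The lowest fold changes were in Rps20 (-0.39 ± 0.27), Rpl6 (-0.18 ± 0.17) and Rpl21 (-0.12 ± 0.23), with adjusted p of 0.553, 0.678 and 0.860. The value of Rpl21 was 0.02 without control mimic replicate 3.

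With miR-27a the members' median log2 fold change against the control mimic was 0.22, against 0.02 for all genes. Of the 73 members, 56 were positive, against 51.2% of all genes. For the 4021 genes within the level range of the members the median was -0.0037, with 1987 positive. The members' median was 0.11 without control mimic replicate 4 and 0.37 without control mimic replicate 3. No member was called by edgeR (0.17% of all genes), 4 had an unadjusted p under 0.05 against 14.3% of all genes, and DESeq2, limma and the replicate block, which applies to this pair of groups and called 3.07% of all genes, called 0 members. The highest fold changes were in Rplp2 (1.05 ± 0.52, adjusted p = 0.369), Rpl18 (0.96 ± 0.32, adjusted p = 0.197) and Rpl8 (0.86 ± 0.35, adjusted p = 0.278). The lowest were in Rps15a (-0.60 ± 0.21, adjusted p = 0.207), Rpl23 (-0.58 ± 0.27, adjusted p = 0.341) and Rpl31 (-0.36 ± 0.26, adjusted p = 0.540). Rps15a was the 1 member whose miR-27a libraries were all below the control libraries, against 2.21% of all genes. Its lowest control value, 81.3 CPM in control mimic replicate 1, came from only 5 reads. For 0 members were the miR-27a libraries all above, against 4.26% of all genes.

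Rps15a, a small subunit protein, set miR-24 and miR-27a apart. It had 137, 177, 167 and 104 CPM with miR-24, 72.2, 75.1, 71.3 and 56.7 CPM with miR-27a, and 81.3, 104, 119 and 97.0 CPM with the control mimic. All miR-24 libraries were above all miR-27a libraries, and relative to miR-27a it rose in miR-24 by a log2 fold change of 1.09 ± 0.20 (adjusted p = 0.0174). It was the 1 member called in this comparison, against 0.278% of all genes called higher and 0.88% in either direction. The call was lost without miR-24 replicate 2 or 3 or miR-27a replicate 2, with an adjusted p of at most 0.0722.

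Rpl23, which like Rpl5 and Rpl11 can bind Mdm2, had the highest fold change of miR-24 relative to miR-27a. It stood at 369, 230, 235 and 188 CPM with miR-24 and at 129, 107, 133 and 107 CPM with miR-27a, without overlap, and the log2 fold change of 1.10 ± 0.26 had an adjusted p of 0.0525. Reads of a small RNA gene, Snora21, whose locus lies within that of Rpl23 on the same strand, could add to its counts. The same holds for other members, such as Rpl13 with Snord68, Rpl5 with Snord21 and Rplp2 with Snora52. In the whole group the median was 0.23 for miR-24 relative to miR-27a, against 0.02 for all genes. Of the 73 members, 58 were positive, against 52% of all genes. For the 4021 genes within the level range of the members the median was -0.08, with 1588 positive. The members' median was 0.09 without miR-27a replicate 4, with 51 members positive, and without miR-24 replicate 3, 46 were positive. The miR-24 libraries were wholly above the miR-27a libraries for 6 members (Rpl23, Rps15a, Rps21, Rpl13a, Rpl9 and Rpl5), against 3.92% of all genes, and wholly below for 0, against 5.47%.

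Among members with a seed match of either length for the mimic given, Rps29 with miR-23a was the only one that passed the test against the control mimic. Matches for miR-23a-3p were present in 6 of 77 members (7.79%, against 19.6% of protein-coding genes) over whole 3′UTRs. The 3′UTRs of the 73 members had a median of only 89 bases. Within windows of the length of the Rps29 3′UTR, 2.73% of protein-coding genes held a match. Among the other members with a match were Rpl5, Rps15a, Rps24 and Rpsa, with 7mers. Their log2 fold changes were -0.17 to 0.52, with an adjusted p of 0.533 or more. Rpl38 and Rpl24 held no match. For miR-24-3p, Rps15a with 1 8mer and 3 7mer matches had a log2 fold change of 0.49 ± 0.21 (adjusted p = 0.282) and Rps24 with an 8mer 0.36 ± 0.27 (adjusted p = 0.598). For miR-27a-3p, Rpl21 with an 8mer stood at 0.00 ± 0.23 (adjusted p = 0.998). Rps15a holds a 7mer match for miR-27a-3p too. The long Rps15a 3′UTR is that of 1 annotated transcript, and counts per gene do not show which transcript was present.

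Members also varied together between libraries of the same group. Each level was taken relative to the median member of its library, and the first component of these relative levels held 39.8% of their variance. At 1 end were Rplp2, Rplp1, Rps10 and Rpl10, and at the other Rpl31, Rps27a, Rpl23 and Rpl12. The libraries lowest on it were miR-24 replicate 1, control mimic replicate 4, control mimic replicate 1 and miR-27a replicate 4, so 3 of the 4 groups were represented. Scores ran from -1.49 to 2.14 with miR-23a, from -3.88 to 2.34 with miR-24, from -2.21 to 2.20 with miR-27a and from -3.65 to 1.21 with the control mimic, where 3 of 4 were negative. The 4 lowest libraries also had the 4 lowest shares of Rn45s, 1.65% in miR-24 replicate 1, 1.17% in miR-27a replicate 4, and 1.46% and 0.30% in control mimic replicates 1 and 4. The part of Rn45s in these scores was not tested, nor were the scores compared between groups. The widest spread of relative level over the 16 libraries was that of Rps29, an SD of 0.986 on the log2 scale, followed by Rplp1 with 0.887 and Rplp2 with 0.751. Rpl17 (0.153), Rpl3 (0.185) and Rps3a (0.208) varied least.

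For Rps29 this spread lay between groups. Its relative level averaged -2.36 ± 0.57 in miR-23a, -0.32 ± 0.31 in miR-24, -0.23 ± 0.24 with miR-27a and -0.29 ± 0.26 with the control mimic (SD, n = 4 each). Rplp1, in contrast, ranged from 56.2 to 212 CPM within miR-23a, from 72.0 to 242 within miR-24, from 47.2 to 245 within miR-27a and from 16.3 to 165 within the control mimic. The 16.3 CPM, in control mimic replicate 1, came from only 1 read, and Rplp2 had 2 reads there. That library is part of the spreads given for both genes. Rps6, the small subunit protein phosphorylated by S6 kinases, averaged 379 ± 77.1 CPM with miR-23a, 360 ± 91.2 with miR-24, 319 ± 60.9 with miR-27a and 371 ± 37.9 with the control mimic, and passed no test. Rpsa, the laminin receptor of the small subunit, averaged 274 ± 111, 203 ± 30.9, 243 ± 63.7 and 186 ± 76.2 CPM in that order. Rps27a, made as a fusion with ubiquitin, averaged 95.5 ± 20.9, 154 ± 57.0, 111 ± 4.70 and 140 ± 40.2 CPM.

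**Figure D4:**
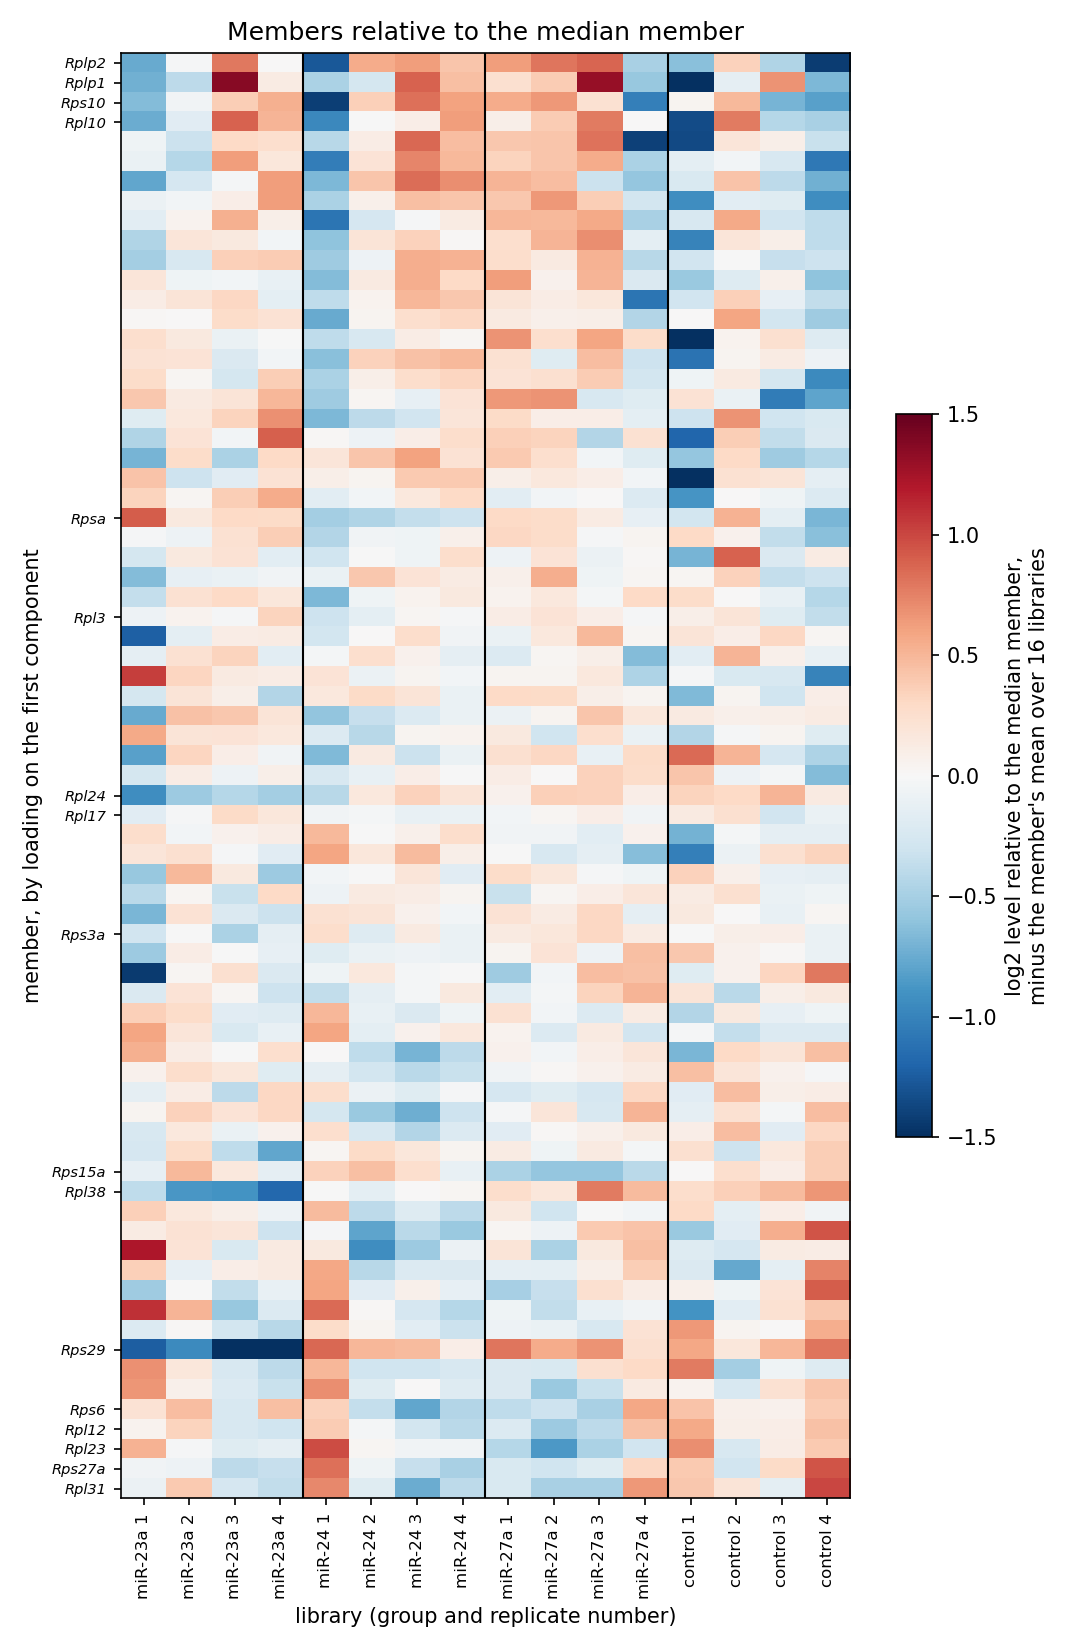
Log2 level of each of the 73 members relative to the median member of the library, minus the member's mean over the 16 libraries, with members in rows ordered by their loading on the first component and libraries in columns by group; some of the members described in the text are labelled. Rps29 is low in the 4 miR-23a libraries, and miR-24 replicate 1, miR-27a replicate 4 and control mimic replicates 1 and 4 are low at the top and high at the bottom. Colours are limited at 1.5 in either direction.

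The base composition of the transcripts moved with these differences. The GC content of the member transcripts ranged from 41.3% (Rps20) to 60.8% (Rpl36), and Pearson's r between GC content and the loading on the first component was 0.48 over the 73 members, which share the same libraries. Between GC content and the log2 fold change against the control mimic, r was 0.30 for miR-23a, 0.56 for miR-24 and 0.53 for miR-27a. Between mimics it was 0.13 for miR-24 relative to miR-23a, 0.12 for miR-27a relative to miR-23a and 0.02 for miR-24 relative to miR-27a. In the 24 members of lowest, the 24 of middle and the 25 of highest GC content, the median log2 fold change of miR-24 against the control mimic was 0.37, 0.43 and 0.69. It was above 0 in each of these sets, and the same medians for miR-24 relative to miR-23a were 0.43, 0.42 and 0.46. Rps29, with a GC content of 53.1%, lay far below members of like composition with miR-23a. The part of base composition in these fold changes was not tested.

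**Figure D5:**
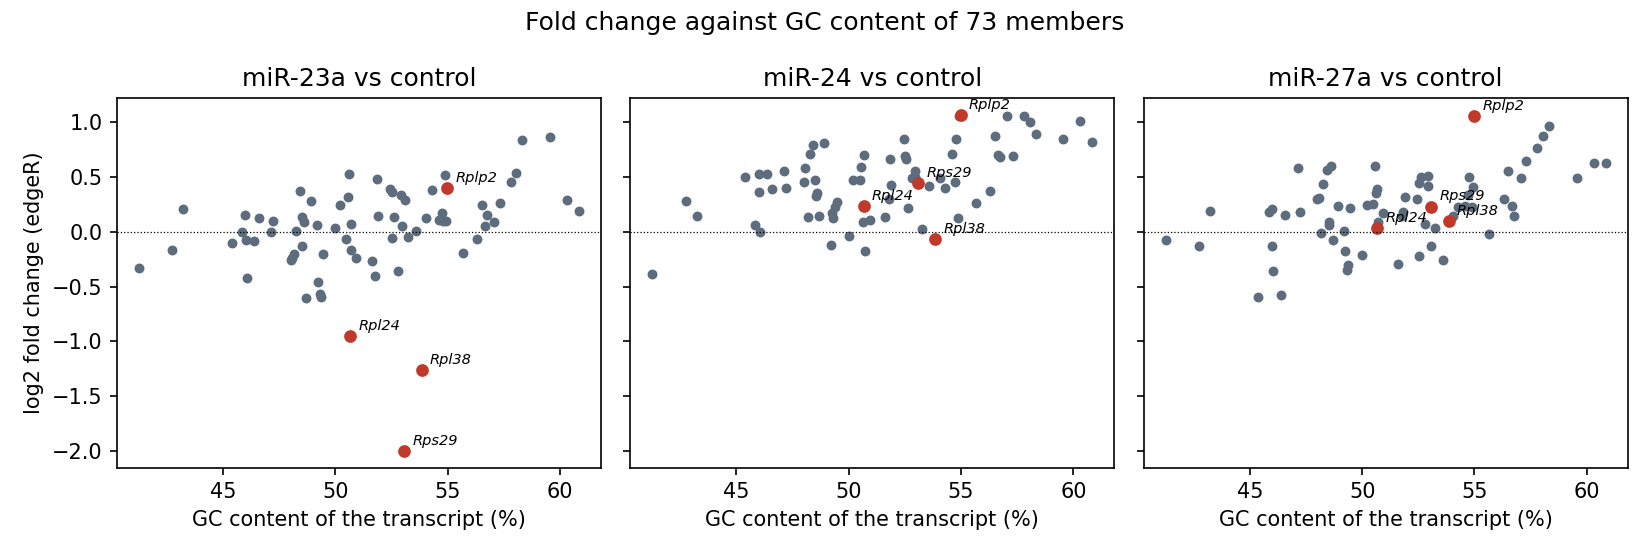
Log2 fold change of the 73 members against the control mimic, plotted against the GC content of the transcript, for miR-23a, miR-24 and miR-27a. Points are members, with Rps29, Rpl38, Rpl24 and Rplp2 in red; fold changes run higher with GC content in the 2 panels on the right (r = 0.56 and 0.53), and Rps29, Rpl38 and Rpl24 lie apart in the left one.

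Ribosomal protein genes have many processed copies in the mouse genome, which limits what reads of 50 bases can tell. Reads without a unique place made up 27.9% to 44.8% of the counted lines' reads per library. Of the 73 members, 72 share at least 1 stretch of 50 bases with another annotated gene. The median share of 50-base stretches found in no other gene was 50.7%, and 13 members had under 20%. It was 64.2% for Rps29, 47.9% for Rpl38, 22.3% for Rpl24 and 93.6% for Rps15a. The Rps15a share is that of the transcript with a 3′UTR of 4728 bases, which shares stretches with 64 other genes. A transcript of Rps15a with a shorter 3′UTR could have another share. Rpl24 also overlaps the annotated gene Gm28037 on the same strand. Over the members, r between this share and the log2 fold change lay between -0.15 and 0.12 in the 6 comparisons.

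Of the members, 57 of 77 matched a promoter entry in RefSeq (GRCm38.p6). The transcript began with C in a run of at least 5 pyrimidines in 13 of the 57 (22.8%), against 3.01% of 27025 genes. They include Rpl38, Rps15a, Rplp2, Rps6 and Rps10. RefSeq starts may differ from those used in T cells.

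Counts of calls in other gene lists stand beside 0.131% to 1.1% of all genes called per comparison, so 0 calls in a list of up to 45 genes is near the background. The ribosome components Fau and Gnb2l1 (the scaffold RACK1), which have other names, did not pass the test in any comparison. Their log2 fold changes with miR-24 against the control mimic were 0.60 ± 0.38 and 0.61 ± 0.24. Of 5 tested paralogs outside the name rule, such as Rpl22l1 and Rpl36al, none passed in any comparison, and with miR-24 against the control mimic 1 was positive. Of 45 ribosome biogenesis genes, none passed. Their median log2 fold change against the control mimic was 0.37 for miR-23a, 0.29 for miR-24 and 0.05 for miR-27a. None of 35 initiation factors and 10 elongation and termination factors passed. Eef2, which moves the ribosome along the messenger RNA, averaged 771 ± 155 CPM with miR-24 and 513 ± 192 CPM with the control mimic (log2 fold change 0.58 ± 0.28, adjusted p = 0.355). None of 20 genes of mTORC1, S6 kinase, LARP1 and MYC passed either.

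Of 76 mitochondrial ribosomal protein genes, 2 passed the test in any of the 6 comparisons. That was 1 of 76 with miR-27a against the control mimic (0.17% of all genes), in miR-24 relative to miR-23a (1.1%), in miR-27a relative to miR-23a (0.548%) and in miR-24 relative to miR-27a (0.88%), counts too small to set the list apart. Mrps33 had 9.03, 12.7, 8.96 and 10.8 CPM with miR-27a, 28.3, 27.1, 22.5 and 27.6 CPM with miR-23a, 27.4, 25.2, 24.5 and 21.9 CPM with miR-24, and 65.1, 20.9, 50.5 and 49.5 CPM with the control mimic. It fell with miR-27a relative to the control mimic (log2 fold change -2.03 ± 0.29, adjusted p = 0.00836) and relative to miR-23a (-1.36 ± 0.27, adjusted p = 0.0259), and rose in miR-24 relative to miR-27a by 1.27 ± 0.27 (adjusted p = 0.0365). Mrpl4 fell in miR-24 relative to miR-23a, with 11.9 ± 2.09 CPM with miR-24 and 28.9 ± 5.19 CPM with miR-23a (log2 fold change -1.27 ± 0.29, adjusted p = 0.0373). The median log2 fold change of the mitochondrial list against the control mimic was 0.09 for miR-23a, 0.02 for miR-24 and 0.13 for miR-27a.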

How the data were processed

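The authors deposited raw read counts per gene symbol for each library, whole numbers with differing totals. Per the submitters' processing notes, Bowtie2, TopHat, DESeq and the mm10 build were used, without versions; the counter, annotation and strand setting are not given in the sources used here. The labels' protocols give 1 ng of RNA, NuGEN amplification and single reads of 50 bases, with 4 libraries per lane. The 5 summary lines (64.6% to 77.6% of reads) were left out. Counts were fitted in R 4.3.3 with edgeR 4.0.16: filterByExpr by group, TMM, the robust quasi-likelihood test with group as the only term over all 16 libraries, two-sided, Benjamini-Hochberg adjustment at 0.05. The biological coefficient of variation was 0.389. Log2-CPM used a prior count of 2. Tested on simulated data for miR-23a against control (12707 genes), the fit called 22% of 2-fold and 89% of 4-fold changes, and 9.02% of its calls were false at the 0.05 threshold. Alternatives used DESeq2 1.42.0, limma 3.58.1, other scalings and filters, a replicate block and each library left out. Same-numbered libraries were taken as paired where all 4 correlations of their deviations passed 0.1 over genes with mean log2-CPM above 5. This held for miR-27a and control (lowest 0.198), miR-24 and miR-23a (0.350), and miR-27a and miR-23a (0.258). Counts of library pairs within a group were compared as a check for duplicate deposits, and all 16 were kept. Named members are those called in any comparison, Rps29, the 3 highest and lowest fold changes against control, the 3 widest and narrowest spreads, the 3 highest and lowest levels per coding length, and members with well-known roles; others named by group overlap, seed matches or block calls follow from those counts, and Rpl9, Rpl13 and Rpl23 relative to miR-27a were picked after their values were seen. The members and lists were chosen with earlier results of these data known. Transcript properties come from GENCODE M21 transcripts matched to RefSeq. Some results on single genes are not reported here.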

Additional observations from a re-analysis of the deposited data

Results flagged for a closer look

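Among 60 sets of 4 libraries examined for a library far from the others, 3 were flagged, where chance flags about 1 in 20. Rps29 in miR-24 replicate 4 was at 97.0 CPM, below the 148 to 158 CPM of the other miR-24 libraries. Rps29 in miR-27a replicate 4 was at 71.7 CPM, below the 133 to 141 CPM of the other miR-27a libraries. Rpl23 in miR-23a replicate 1 was at 267 CPM, above the 133 to 136 CPM of the other miR-23a libraries.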

How the results depend on the processing

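The number of members called differed between tools and with the libraries fitted. For miR-23a against control it was 2 by DESeq2, by limma, with the replicate block and without miR-23a replicate 1 (Rps29 and Rpl38), and 0 when only the libraries of both groups entered the fit, where Rps29 had an adjusted p of 0.0583; the range with 1 library left out was 1 to 2. For miR-24 against control it was 1 with upper-quartile scaling, 2 by DESeq2, 5 with the replicate block and 0 in each fit with 1 library left out. For miR-24 relative to miR-23a it was 10 by DESeq2, 15 by limma, 14 with the replicate block, 1 with only both groups' libraries and 1 to 3 with 1 library left out. For miR-27a relative to miR-23a it was 1 with only both groups' libraries and 1 to 2 with 1 library left out. For miR-24 relative to miR-27a it was 2 with RLE scaling and by DESeq2, 4 by limma, 3 with the replicate block, 0 with only both groups' libraries and 0 to 1 with 1 library left out. In miR-27a against control no setting called a member. Rps29 passed in all 8 fits with 1 library left out in each of the 3 comparisons with miR-23a. Rpl21 with miR-24 had a log2 fold change of -0.25 to 0.0164 with 1 library left out, positive without control mimic replicate 3. Over all genes the replicate block called 55 in place of 17 for miR-23a, 591 in place of 110 for miR-24 (4.56% of genes tested, against 0.425% for miR-23a) and 398 in place of 22 for miR-27a against control. It called 572 (4.42%) in place of 114 for miR-24 relative to miR-27a, 697 in place of 142 for miR-24 relative to miR-23a and 382 in place of 71 for miR-27a relative to miR-23a. Same-numbered libraries did not all correlate for miR-23a and control (lowest -0.12), miR-24 and control (0.0313) or miR-24 and miR-27a (-0.00614). The causes were not tested. Depth limits control mimic replicate 1 in particular.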
